A study of Ovis aries with 5 samples.

Results

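The genes described here are MYLK, ACTB and KIF5B, a kinase, a structural protein and a motor protein of the cytoskeleton, measured in dendritic cells (DC) from the skin lymph of sheep. On the Agilent 2-colour array used, 7 of the 15008 distinct non-control probes carry 1 of these gene names or are described as 1 of these genes: 2 for MYLK, 4 for ACTB and 1 for KIF5B. All 7 were among the 13264 probes bright enough to be tested. The 3 genes were chosen by measured values of these arrays, with their differences between the subsets and from total DC known. Those differences are therefore given as a description, with no test.

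From the lymph DC of sheep 30066 and sheep 10081, CD1b+ cells were sorted by whether they carried CD26, and the fractions are called CD26+ and CD26- below. Sorted cells gave the Cy3 channel and 1 reference RNA the Cy5 channel of each array, with 2 arrays per subset. A further array carried the reference in both dyes (the self-hybridisation) and has no replicate. By its sample label the reference was unsorted, enriched DC of lymph from other sheep, whereas the labelling protocol names a culture of LP-1cl1 cells. It is called total DC here. In a difference from total DC, the sort, the animals and the source of the reference cannot be told apart. Neither breed, age nor any treatment of the animals is given in the labels, and dyes were not swapped.

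Myosin light chain kinase (MYLK) is activated by calcium and calmodulin and phosphorylates the regulatory light chain of myosin II, which makes actomyosin contract. It is best known from smooth muscle. Beta actin (ACTB) is a main building block of the actin filaments of non-muscle cells and is often used as a housekeeping control. KIF5B is a heavy chain of conventional kinesin, the motor that carries vesicles and organelles outward along microtubules. Migrating DC use actomyosin contraction as they move, and microtubule transport to bring antigen-loaded vesicles to the surface.

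The 60-base probe sequences are shown because the results turn on whether probes of 1 gene read the same message. They are the designed probes of the array, printed 5′ to 3′. The MYLK probes were designed on sequences named as myosin light chain kinase. They shared no run longer than 7 bases, so each read a separate stretch:
MYLK P016046: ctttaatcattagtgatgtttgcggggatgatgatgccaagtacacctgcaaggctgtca
MYLK P057151: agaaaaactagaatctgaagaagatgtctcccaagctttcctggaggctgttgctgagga

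The KIF5B probe was designed on a partial mRNA named as kinesin family member 5B. A search of all other probes of the array for shared runs of 12 bases or more found a 30-base run, in capitals, in a probe for an expressed sequence tag with no gene name. Beyond that run the next 4 bases also matched once 1 base of the KIF5B probe was skipped:
KIF5B P065586: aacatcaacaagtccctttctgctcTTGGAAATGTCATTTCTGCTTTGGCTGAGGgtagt
unnamed tag P049531: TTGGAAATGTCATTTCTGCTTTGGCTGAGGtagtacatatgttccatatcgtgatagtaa

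The ACTB probes come from 3 sources. P056796 was designed on a partial beta actin mRNA and P039446 on the RefSeq beta actin mRNA. P030531 and P030535 bear the name ACTB but were designed on an expressed sequence tag whose description names no gene. The start of P030531, in capitals, is a 19-base run that also lies in a probe of ACTG1 (P016442), the gene of the closely related gamma actin. P030535 lists the tag on which the ACTG1 probes were designed as a further source. Whether these tag probes read ACTB, ACTG1 or another message was not tested. The 4 ACTB probes shared no run longer than 9 bases with each other:
ACTB P056796: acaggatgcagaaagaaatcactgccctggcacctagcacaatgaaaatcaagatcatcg
ACTB P039446: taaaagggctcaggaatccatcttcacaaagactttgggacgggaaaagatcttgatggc
ACTB P030531: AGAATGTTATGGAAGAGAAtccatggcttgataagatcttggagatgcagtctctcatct

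Values below are log2 ratios of Cy3 over Cy5, after background correction and loess normalisation, unless a sentence says that they are spot signals. A difference of 1 is 2-fold. Over the tested probes the log2 ratio had an SD of 0.291 on the self-hybridisation, and of 1.18 to 1.42 among the subset arrays. The 50 probes printed in 5 spots had a median SD between spots of 0.0779 to 0.0976, while each probe described here had 1 spot per array. limma called 0 of 13264 probes (0%) between the subsets at an adjusted p under 0.05, and 0 of 13204 (0%) for either subset against total DC. None of the 7 probes was therefore called. At an unadjusted p under 0.05 limma found 746 of 13264 probes for CD26+ against CD26-. It found 1491 and 1401 of 13204 for CD26+ and CD26- against total DC. A share of 0.05 is expected where nothing differs. Precision is limited by how few arrays there are, and the labels name 2 animals per subset as the only replicates. The arrays of sheep 30066 lie in another row of the slide than those of sheep 10081, so sheep and row cannot be told apart.

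MYLK stood far above all other arrays in the CD26- cells of sheep 30066, with both of its probes. On P016046 the log2 ratio was 4.23 in CD26- cells of sheep 30066 and 0.50 in those of sheep 10081, -1.13 and -0.95 in CD26+ cells of the same sheep, and 0.17 on the self-hybridisation. The CD26- arrays lay above and the CD26+ arrays below the self-hybridisation, and the subsets did not overlap. In these bulk samples, more cells with MYLK and more MYLK RNA per cell cannot be told apart. The mean was 2.36 ± 2.63 (SD, n = 2) in CD26- and -1.04 ± 0.13 (SD, n = 2) in CD26+ cells. The order of levels was thus CD26-, total DC, CD26+, but the spread between the CD26- arrays was larger than their distance from total DC.

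On P057151 the log2 ratio was 4.93 and 0.67 in the CD26- cells of sheep 30066 and 10081, 0.09 and -0.17 in their CD26+ cells, and 0.15 on the self-hybridisation. This probe too placed 1 array far above the rest and the other 4 close together. Its mean was 2.80 ± 3.01 (SD, n = 2) in CD26- and -0.04 ± 0.18 (SD, n = 2) in CD26+ cells.

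The spot signals show where the ratio came from. The Cy3 signal of P016046 was 2868 units in CD26- cells of sheep 30066, over a local background of 39, and 68.5 to 262.1 units on the other 4 arrays. That of P057151 was 2042.5 units on the same array and 65.1 to 134.5 on the others. The Cy5 signal of the reference stayed between 204.6 and 282.9 units for P016046 and between 83.6 and 111.0 for P057151, so the high array was high in the sample and not low in the reference. Both probes were well above background in Cy3 on 5 of 5 arrays, although on the CD26+ arrays the Cy3 signal was only 1.85 to 2.24 times the background. In Cy5, P057151 was well above background on 4 of 5 arrays. Neither was saturated.

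**Figure D1:**
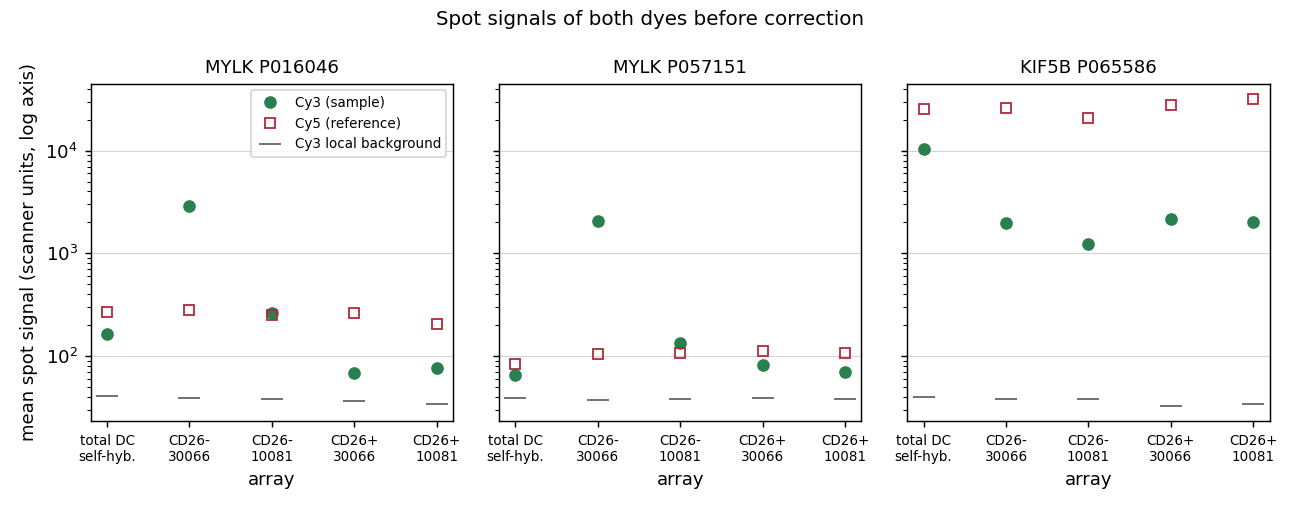
Spot signals before correction (scanner units, log axis) of both MYLK probes and the KIF5B probe on the 5 arrays, in Cy3 (sample, filled circles) and Cy5 (reference, open squares), with the Cy3 local background as dashes. For MYLK the Cy3 signal reaches 2868 and 2042.5 units in CD26- cells of sheep 30066 alone, and for KIF5B it is 10429.7 units on the self-hybridisation and between 1228 and 2180 on the subset arrays. Cy5 stays between 20973 and 31833 units for KIF5B.

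CD26+ minus CD26-, MYLK stood at -3.40 (SE 1.30, n = 2 sheep) on P016046 and at -2.84 (SE 1.48, n = 2 sheep) on P057151. With sheep as a replicate block these SEs were 1.12 and 1.15. The differences within sheep 30066 were -5.35 and -4.84, that is 40.9-fold and 28.6-fold more signal ratio in CD26- cells. In sheep 10081 they were -1.45 and -0.84, or 2.74-fold and 1.79-fold. The direction was the same in both sheep on both probes, and the size differed by far more between the sheep than between the probes. Among the 13177 tested probes with a value in sheep 30066, P016046 had the lowest difference and P057151 the third lowest (rank 3). In sheep 10081 the same probes ranked 613 and 1592 from the lowest of 13019. Of the 7 probes, P016046 alone was at least 2-fold lower in CD26+ cells in both sheep, which held for 2.97% of all tested probes. Since the genes were picked with this contrast known, nothing is read from that count.

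The size of the MYLK difference rested on 1 array. Without CD26- cells of sheep 30066 it was -1.54 on P016046 and -0.71 on P057151. The background model also changed it: fitted on all spots, including those beside bright specks, it gave -1.96 and -1.18. Among the 12875 tested probes with a value on every array, 2 had a log2 ratio of at least 4 in CD26- cells of sheep 30066 and of at most 1 on all others, and these were the MYLK probes. The limits of 4 and 1 were set after the MYLK values had been seen. The same limits picked 4, 2 and 0 probes for CD26+ cells of sheep 30066, CD26+ cells of sheep 10081 and CD26- cells of sheep 10081.

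Against total DC, MYLK stood at 2.19 (SE 1.60) and 2.65 (SE 1.81) in CD26- cells on the respective probes, and at -1.21 (SE 1.60) and -0.19 (SE 1.81) in CD26+ cells. These SEs use a spread shared by all groups and not that of the CD26+ arrays alone. By array, CD26+ cells stood at -1.30 and -1.12 on P016046 and at -0.06 and -0.32 on P057151. Without CD26- cells of sheep 30066 the CD26- values were 0.33 and 0.52, and fitting the background model on all spots gave 1.14 and 1.05. The probes differed by 0.46 for CD26- cells and by 1.02 for CD26+ cells. For 395 other named genes with several tested probes, the range between the probes of a gene had a median of 0.133 in CD26- and 0.148 in CD26+ cells, and 12.4% and 5.6% of them had a range as large as that of MYLK. Between the subsets the MYLK probes differed by 0.56, and 7.8% of those genes had a range as large. The genes were not matched to MYLK by their number of probes.

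Markers of smooth muscle, where MYLK is abundant, were barely represented. Of 10 listed smooth muscle markers only CNN1, the actin-binding protein calponin, was on the array, with 1 probe. It read 49.0 to 61.7 units in Cy3, where the local background was 36.0 to 38.0, and was well above background on 0 of 5 arrays. Of 10 markers of fibroblasts and endothelium, 4 were tested, and the summed corrected Cy3 signal of their probes was 469 and 505 units on the CD26- arrays, 454 and 453 on the CD26+ arrays and 341 on the self-hybridisation. These sums include the offset of 50 per probe from the background correction and were not normalised between arrays. The median Cy3 signal of an array ran from 204.3 units on the self-hybridisation to 307.1 in CD26- cells of sheep 10081. COL1A1 and DCN, genes of connective tissue matrix, were well above background on 2 of 5 arrays each, and COL3A1, a further collagen, and KDR, a growth factor receptor of endothelium, on 5 of 5. The log2 ratios of COL3A1 and KDR were highest on the array where MYLK was high, at 0.49 and 0.42, against -0.04 to 0.41 and -0.06 to 0.36 on the others. COL1A1 stood at 0.13 on that array, against -0.09 to 0.10. DCN stood at 0.11 there and was highest in CD26+ cells of sheep 10081, at 0.17. For CD26+ minus CD26- the SEs of these 4 genes were 0.34 to 0.40. How their gaps between arrays compare with the error of 1 probe on 1 array was not tested. Of 12 markers of other muscle the myoglobin gene MB was tested, at -0.04 on the array where MYLK was high and -0.55 to -0.26 on the others. The part of other cell types in the MYLK values was otherwise not tested.

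Of the 23 listed DC markers 7 were tested, among them CD86, CD80 and CD40, and all of these but FCER1A (4 of 5) were well above background in Cy3 on 5 of 5 arrays. The summed corrected Cy3 signal of the 6 tested T cell markers was 18716 and 19719 units on the CD26+ arrays, 7219 and 11817 on the CD26- arrays and 8933 on the self-hybridisation. That of the DC markers was 30674 and 49537 units on the CD26+ arrays, 19688 and 24305 on the CD26- arrays and 23335 on the self-hybridisation. Both sums were higher on the CD26+ arrays, where MYLK was lower, but neither set of markers moved as one. For CD26+ minus CD26-, 5 of the 7 DC markers had a positive difference in each sheep and 2 a negative one. The negative ones were FCER1A, at -1.64 (SE 0.36), and CD1D, at -1.18 (SE 0.54). Among those of T cells, 2 of the 6 had a positive difference in each sheep and 3 a negative one, with a median difference of 0.15. Over all tested probes with a value in both sheep, 27.6% had a positive difference in each and 28.4% a negative one. CD3D, which defines T cells, stood at -1.12 (SE 1.43). GATA3, a transcription factor of T cells, stood at -1.57 (SE 0.93), with -3.02 in sheep 30066. CD4 stood at -0.06 (SE 0.34) and was well above background on 2 of 5 arrays. Going the other way, CD5 stood at 1.57 (SE 0.53) and CD247 at 1.36 (SE 0.55). CD3E stood at 0.35 (SE 0.59), with -0.27 in sheep 30066 and 0.97 in sheep 10081. The part of these markers in the differences was not tested.

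**Figure D2:**
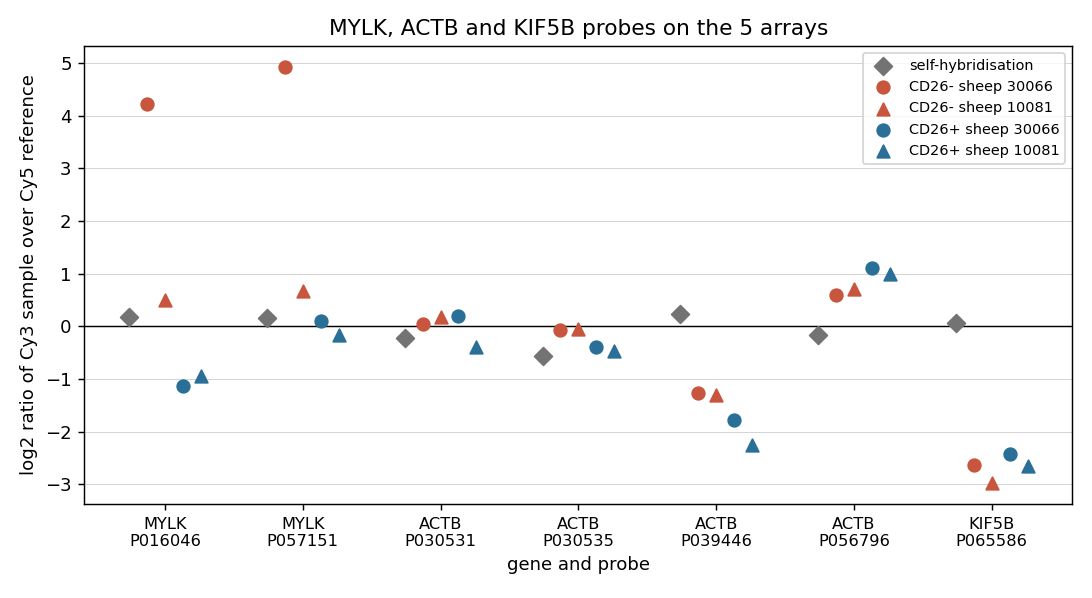
Log2 ratio of sample over reference for each of the 7 probes of MYLK, ACTB and KIF5B, with 1 point per array (grey diamond, self-hybridisation; red, CD26-; blue, CD26+; circles, sheep 30066; triangles, sheep 10081). Both MYLK probes have 1 point above 4, the KIF5B probe has all 4 subset arrays between -2.98 and -2.43, and the ACTB probes spread from -2.26 to 1.10.

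KIF5B was lower in both subsets than in total DC and differed little between the subsets. The reference was not from these sheep by its label, so the sort, the animals and its source cannot be told apart in that difference. The log2 ratio was -2.63 and -2.98 in CD26- cells of sheep 30066 and 10081, -2.43 and -2.66 in their CD26+ cells, and 0.06 on the self-hybridisation. All 4 subset arrays lay far below the self-hybridisation, and the ranges of the subsets overlapped. In Cy3 the self-hybridisation read 10429.7 units, the subset arrays read 1228 to 2180, and the Cy5 signal was 20973 to 31833 units throughout.

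Against total DC the difference was -2.61 (SE 0.44), or 6.10-fold, in CD26+ cells and -2.87 (SE 0.44), or 7.30-fold, in CD26- cells. By sheep it was -2.49 and -2.72 in CD26+ cells of sheep 30066 and 10081, and -2.69 and -3.04 in their CD26- cells. The self-hybridisation is shared by both of these comparisons, so their values are not independent of each other. CD26+ minus CD26-, KIF5B stood at 0.26 (SE 0.36), with 0.20 in sheep 30066 and 0.32 in sheep 10081. The SE was 0.30 with sheep as a replicate block, so the sign was shared by both sheep while the difference stayed below the SE of either fit.

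The unnamed tag that overlaps the KIF5B probe had a like pattern. Its log2 ratio was -2.82 and -3.21 in CD26- cells of sheep 30066 and 10081, -2.51 and -2.93 in their CD26+ cells, and -0.10 on the self-hybridisation. Over the 5 arrays it lay within 0.27 of the KIF5B probe, with a root mean square difference of 0.199. It stood at -2.62 (SE 0.47) in CD26+ and -2.91 (SE 0.47) in CD26- cells against total DC. The probes share a 30-base run of their 60 bases, so they are not independent, and whether the unnamed tag is KIF5B was not tested.

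**Figure D3:**
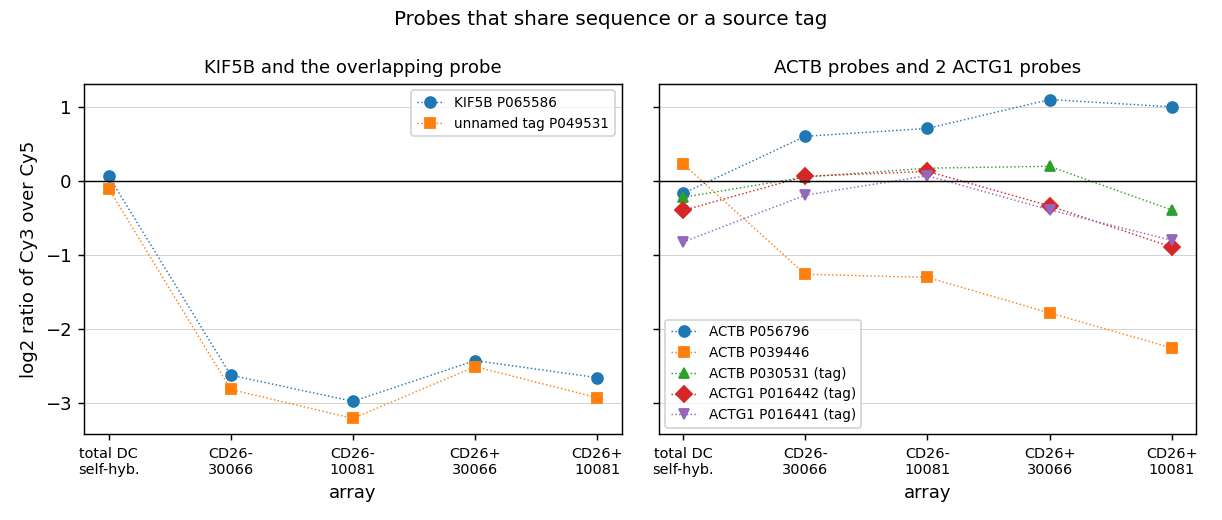
Log2 ratios on the 5 arrays of probes that share sequence or a source tag, with 1 symbol per probe and array. Left, the KIF5B probe and the overlapping unnamed tag stay within 0.27 of each other on each array. Right, ACTB probe P056796 lies above 0 and P039446 below 0 on all 4 subset arrays, while ACTB tag probe P030531 and the ACTG1 probes lie between -0.90 and 0.20.

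The ACTB probes did not give 1 answer. On P056796 the log2 ratio was 0.60 and 0.71 in CD26- cells of sheep 30066 and 10081, 1.10 and 1.0 in their CD26+ cells, and -0.17 on the self-hybridisation. All 4 subset arrays lay above the self-hybridisation, and the CD26+ arrays lay above the CD26- arrays. Against total DC this probe stood at 1.22 (SE 0.41) in CD26+ and 0.82 (SE 0.41) in CD26- cells, and CD26+ minus CD26- at 0.39 (SE 0.34), with 0.50 in sheep 30066 and 0.29 in sheep 10081. Its Cy3 signal was 24250 to 47174 units.

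P039446, designed on the RefSeq beta actin mRNA, went the opposite way. Its log2 ratio was -1.26 and -1.30 in CD26- cells of sheep 30066 and 10081, -1.78 and -2.26 in their CD26+ cells, and 0.23 on the self-hybridisation. The subsets did not overlap, with CD26+ cells lowest and the self-hybridisation highest. Against total DC it stood at -2.25 (SE 0.45) in CD26+ and -1.51 (SE 0.45) in CD26- cells, and CD26+ minus CD26- at -0.74 (SE 0.37), with -0.52 in sheep 30066 and -0.95 in sheep 10081. With sheep as a replicate block the SE between the subsets was 0.32. The Cy3 signal of P039446 was low, at 67.4 to 238.5 units over a background of 34.0 to 39.0, and well above background on 5 of 5 arrays. P056796, also designed on beta actin mRNA, read 24250 to 47174 units in Cy3. In Cy5 the signals were 399.4 to 522.9 units for P039446 and 47013 to 81029 for P056796. Whether these probes read the same message was not tested. The background model fitted on all spots moved its difference from total DC in CD26- cells to -0.59, and an offset of 0 moved that in CD26+ cells to -3.33 and CD26+ minus CD26- to -1.32.

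On the subset arrays the tag probes named ACTB lay between these, and on the self-hybridisation they lay below both. On P030531 the log2 ratio was 0.05 and 0.17 in CD26- cells of sheep 30066 and 10081, 0.20 and -0.40 in their CD26+ cells, and -0.22 on the self-hybridisation. On P030535 it was -0.07 and -0.06 in CD26- cells, -0.39 and -0.47 in CD26+ cells, and -0.57 on the self-hybridisation. CD26+ minus CD26-, they stood at -0.21 (SE 0.39) and -0.36 (SE 0.33). P030531 differed in sign between the sheep, with 0.14 in sheep 30066 and -0.57 in sheep 10081, and P030535 did not, with -0.32 and -0.41. Against total DC they stood at 0.12 (SE 0.48) and 0.14 (SE 0.41) in CD26+ cells, which turned to -0.18 and -0.21 with median centring and to -0.07 and -0.10 with the processed signals of the scanner software. In CD26- cells they stood at 0.33 (SE 0.48) and 0.50 (SE 0.41). With scaling between arrays P030535 moved to 1.32 in CD26+ and 1.59 in CD26- cells.

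The ACTG1 probes that share sequence or a source tag with them gave values as follows. P016442 stood at -0.71 (SE 0.38) and P016441 at -0.54 (SE 0.37) for CD26+ minus CD26-, and at -0.22 and 0.23 for CD26+ cells against total DC. Over the 5 arrays P016442 had a root mean square difference of 0.337 from P030531, and P016441 one of 0.205 from P030535. P016442 and P030531 differed in sign for CD26+ against total DC and, between the subsets, in sheep 30066, where P016442 stood at -0.40.

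Across its 4 probes ACTB ranged from -0.74 to 0.39 between the subsets, a range of 1.13. Of the 395 other named genes with several tested probes, 1.3% had a range as large, and the median range was 0.113. Against total DC the ACTB range was 3.47 in CD26+ cells, which 0% of those genes reached, and 2.34 in CD26- cells, which 0.5% reached. Those genes had 2 or more tested probes each and were not matched to the 4 of ACTB. A range tends to widen with more probes, so these shares can overstate how unusual ACTB is. How many of those genes had probes from several source sequences, as ACTB has, was not tested. The mean over the 4 probes was -0.23 for CD26+ minus CD26-, and it hides probes of opposite sign.

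Of the 7 probes, 3 were at least 2-fold lower than total DC on both CD26+ arrays (MYLK P016046, ACTB P039446 and KIF5B), which held for 8.79% of all tested probes, and 2 on both CD26- arrays (ACTB P039446 and KIF5B), against 7.51%. ACTB P056796 was at least 2-fold higher on both CD26+ arrays, against 9.89% of all probes. No probe of these genes was at least 2-fold higher on both CD26- arrays, against 10.1%. The members were chosen with these contrasts known, so nothing is read from the counts.

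Other genes of the cytoskeleton and its motors lay between -0.67 and 0.72 for CD26+ minus CD26-, closer to 0 than MYLK, each by its brightest probe, and 0 of them were called. Of 5 tested genes for myosins and their regulation, MYLK included, 3 were higher and 1 was lower in CD26+ cells in both sheep, with a median difference of 0.45 against -0.005 over all tested probes. PPP1R12A, the targeting subunit of the phosphatase that reverses MYLK's action on myosin, stood at 0.66 (SE 0.40), with 1.14 in sheep 30066 and 0.18 in sheep 10081, and its other probes at 0.80 and 0.70. MYL6, an essential light chain of myosin II, stood at 0.72 (SE 0.69), with 0.54 in sheep 30066 and 0.89 in sheep 10081. RAC1, a small GTPase that drives actin-rich protrusions, stood at -0.54 (SE 0.51), with no value in CD26+ cells of sheep 30066 on its brightest probe, so it is in neither count. Its other probe, P059127, was lower in CD26+ cells in both sheep, at -0.71 in sheep 30066 and -0.38 in sheep 10081. CALM2, a calmodulin gene whose protein activates MYLK, was the remaining gene, at 0.45 (SE 0.52).

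Of 4 tested genes for actin and actin binding, in both sheep 1 was higher in CD26+ cells and 3 lower, with a median of -0.45. The count takes ACTB, as lower, by its tag probe P030535; P056796, on beta actin mRNA, was higher in both sheep. Among all tested probes 27.6% were higher and 28.4% lower in both sheep. ACTR2, a subunit of the complex that starts branched actin filaments, stood at -0.67 (SE 0.43) between the subsets and at -1.77 (SE 0.53) in CD26+ and -1.09 (SE 0.53) in CD26- cells against total DC. CFL1, the filament-severing protein cofilin, stood at 0.25 (SE 0.35) between the subsets and at 0.90 (SE 0.43) and 0.65 (SE 0.43) against total DC. DYNLT3, a light chain of the inward motor dynein, stood at -0.26 (SE 0.33) between the subsets. It stood at -0.53 (SE 0.41) in CD26+ and -0.28 (SE 0.41) in CD26- cells against total DC, where KIF5B, the other tested gene of microtubules and their motors, stood at -2.61 and -2.87.

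The 3 tested genes of intermediate filaments had a median of 0.12. VIM, the vimentin of mesenchymal and white blood cells, stood at -0.43 (SE 0.47). LMNB1, of the nuclear lamina, stood at 0.12 (SE 0.86), and its ratio was 1.56 and 1.59 in sheep 10081 against -0.17 and 0.02 in sheep 30066. GFAP stood at 0.30 (SE 0.35).

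**Figure D4:**
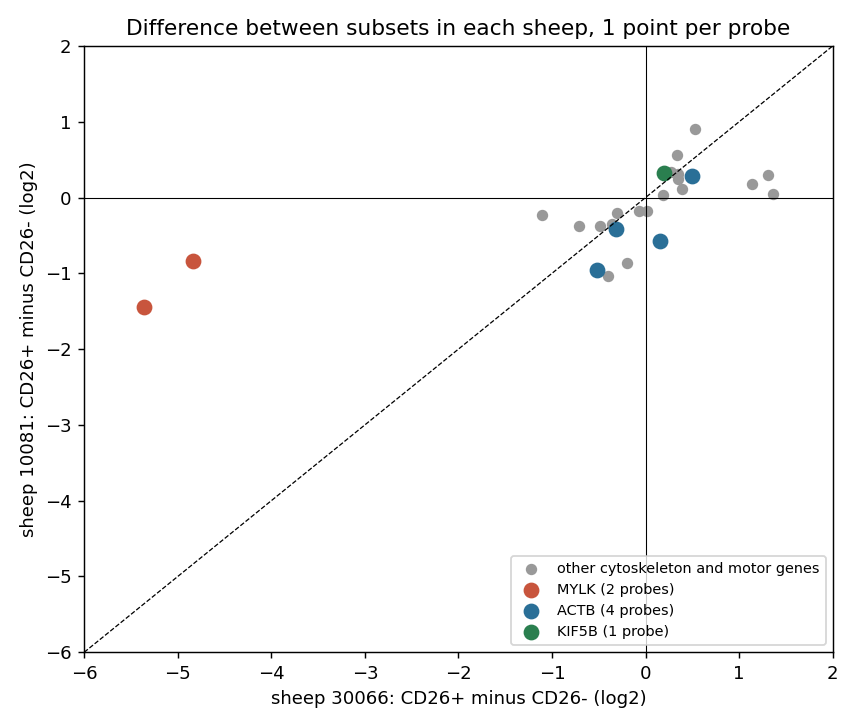
Difference CD26+ minus CD26- (log2) in sheep 30066 against that in sheep 10081, with 1 point per tested probe of the listed cytoskeleton and motor genes; the dashed line marks equal differences. The MYLK probes stand apart, with -5.35 and -4.84 for sheep 30066 and -1.45 and -0.84 for sheep 10081, while the lowest differences of other probes are -1.12 (ACTR2) in sheep 30066 and -1.02 (ACTG1 P016442) in sheep 10081.

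The other named genes most like each gene were ranked by the root mean square difference of the log2 ratio over the 5 arrays, among 679 genes with 1 probe each. For MYLK P016046 none came close: the nearest were GJB2, a gap junction protein, at 1.21, SMAD4 at 1.34 and the prostaglandin receptor gene PTGER3 at 1.37. For the KIF5B probe the nearest was SLC2A5, a fructose transporter, at 0.237, with ratios of -2.35 and -3.31 in CD26- cells of sheep 30066 and 10081 and -2.20 and -2.45 in their CD26+ cells. SOD2, the mitochondrial superoxide dismutase, followed at 0.588 and NPPC at 0.593. For the brightest ACTB probe, P030535, they were EIF4A2 at 0.198, ACTG1 at 0.205 and CSN2 at 0.218.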

How the data were processed

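Per the labels, total RNA was amplified and labelled with Cy3 (subset) or Cy5 (reference), and 5 arrays of 1 slide were scanned. The deposited scanner files hold spot intensity values in both channels, with backgrounds, flags and a log10 ratio, written per the file headers by Feature Extraction 9.5.3.1. The deposited value table holds log2 values; comparison with the scanner ratios showed them to be Cy3 over Cy5, to within 5e-10. Its normalisation beyond those ratios is not given in the sources used here.

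Spot intensities were background-corrected by normexp (offset 50), with the fit leaving out spots of local background over 5 times the median of their array, then loess-normalised within each array with the 536 control spots at weight 0. Spots with outlier flags were left out and spots of a probe averaged. A probe was tested where its Cy3 signal was well above background on 2 or more of the 5 arrays (13264 of 15008). limma 3.58.1 in R 4.3.3 fitted 3 group means, with Benjamini-Hochberg adjustment over all tested probes. SEs come from this fit, in which the groups share an estimate of the spread for each probe. Difference from total DC means minus the self-hybridisation, a single array. The steps were run on simulated data that had no spread between sheep, which does not gauge their error on these arrays. Subsets of a sheep come from the same animal, and their deviations from the group means correlated at 0.339; sheep as a replicate block was an alternative. The other alternatives were the background model and offset, median centring, scaling between arrays, the processed signals, the filter and leaving out each array.

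Gene names come from the array's gene names and descriptions, with accessions looked up in a RefSeq gene table. Named were all probes of the 3 genes, the 2 highest and 2 lowest genes of each cytoskeleton list by CD26+ minus CD26-, and the 3 nearest genes of each; further names were added after their values were seen. The members and lists were chosen with earlier results of these data known. Listed markers of keratinocytes and platelets had no named probe. For CD26+ minus CD26-, the B cell marker CR2 stood at 0.15 and the erythroid marker HBB at 0.06. The monocyte markers CD14 and CHI3L1 stood at -1.09 and -0.79, and the NK cell marker GNLY at 3.24. GNLY had no value in CD26- cells of sheep 10081. Of the CD26- arrays only that of sheep 30066, at -4.89, entered its difference.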

Additional observations from a re-analysis of the deposited data

Results flagged for a closer look

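Both MYLK probes drew attention because the subsets lay on opposite sides of the self-hybridisation: every CD26- array lay above it and every CD26+ array below it. The difference CD26+ minus CD26- was -3.40 on P016046 and -2.84 on P057151. Whether the subsets' departures from total DC differ was not tested for these probes, since MYLK was chosen with its values known. On P057151 the CD26+ array of sheep 30066 lay only 0.06 below the self-hybridisation, and CD26+ cells stood at -0.19 (SE 1.81) against total DC, well within the error. That SE uses a spread shared by all groups, with an SD of 3.01 between the CD26- arrays and 0.18 between the CD26+ arrays. Groups of 2 arrays are too small for a search for outlying samples.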

How the results depend on the processing

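limma called 0 probes in each of the 3 comparisons under every alternative run, so no call changed. With sheep as a replicate block it called 0 as well, with 1126, 2321 and 2089 probes at an unadjusted p under 0.05 for CD26+ against CD26-, CD26+ against total DC and CD26- against total DC. Scaling between arrays gave 2838 and 2623 such probes against total DC, and normexp fitted on all spots gave 636 for CD26- against total DC. Median centring moved the median of all tested probes against total DC from -0.024 and -0.032 to -0.258 and -0.229 (CD26+ and CD26-), and the probes at an unadjusted p under 0.05 for CD26+ against total DC from 800 higher and 691 lower to 611 and 1017; between the subsets it moved them from 320 and 426 to 267 and 530.

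KIF5B stayed lower than total DC in both subsets under all of them. Its difference was -2.86 with median centring and -2.13 with scaling in CD26+ cells, and -2.34 with scaling in CD26- cells. MYLK stayed lower in CD26+ than in CD26- cells on both probes, but its size moved. For P016046 it was -1.96 with normexp on all spots, -2.76 with scaling and -4.27 with offset 0, and for P057151 -1.18 with normexp on all spots and -3.55 with offset 0. Leaving out 1 array gave -5.26 to -1.54 and -4.97 to -0.71. ACTB P030531 turned to 0.08 between the subsets without CD26+ cells of sheep 10081 and to -0.17 for CD26+ against total DC without CD26+ cells of sheep 30066. For CD26+ against total DC, P030531 gave -0.18 and P030535 -0.21 with median centring, and -0.07 and -0.10 with the processed signals. P057151 was not well above background in Cy5 on the self-hybridisation, so the stricter filter dropped it.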
